A study of Mus musculus with 8 samples.

Results

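The genes described here are 10 integrin subunit genes of cultured mouse astrocytes, with 6 α subunits (Itga2, Itga3, Itga5, Itga6, Itga7 and Itgav) and 4 β subunits (Itgb1, Itgb3, Itgb5 and Itgb8). They were found by gene symbol, and all 10 were among the 54146 genes listed in each of the 8 libraries. Itga5 was picked from these same data because it was lower in GSTM1 knockdown (KD) astrocytes in both states, so its values in that comparison are a description and carry no test. Another 17 integrin subunit genes were listed in the libraries and are used for comparison. The cells were primary astrocytes grown as mixed glia from the cortices of C57BL/6 pups. Control KD cells carried a lentiviral non-silencing shRNA, and GSTM1 KD cells carried a lentiviral shRNA against Gstm1, a glutathione S-transferase of the mu class. All cultures were selected with puromycin and depleted of CD11b+ cells, which removes most microglia. Both kinds of culture were measured without stimulation (basal) and after 6 h with TNF-α (50 ng/ml), in 4 groups of 2 biological replicates each.

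Integrins are receptors for the extracellular matrix. Each is a pair of one α and one β subunit that spans the plasma membrane, binds matrix proteins outside the cell and connects to actin through talin, kindlin and other focal adhesion proteins inside it. The α subunit largely sets the ligand. Itga5 pairs with Itgb1 into the main fibronectin receptor, Itgav pairs with Itgb1, Itgb3, Itgb5 or Itgb8 into receptors for vitronectin, fibronectin and latent TGF-β, Itga3, Itga6 and Itga7 pair with Itgb1 into laminin receptors, and Itga2 pairs with Itgb1 into a collagen receptor. In the brain, astrocytes use laminin-binding integrins at the basement membrane of vessels, and the pair of Itgav and Itgb8 is known for activating latent TGF-β. TNF-α is an inflammatory cytokine that acts largely through NF-κB and AP-1.

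The summed estimated counts ran from 17349717 to 34434635 per library, and the 10 genes held 0.251% to 0.367% of them. Gstm1 checked the labels. Its CPM values (counts scaled to a common library size, with TMM factors) were 231 and 377 in control KD, against 29.0 and 31.4 in GSTM1 KD without stimulation, and 209 and 391 in control KD, against 24.3 and 23.3 in GSTM1 KD after TNF-α. The cultures expressed all 9 astrocyte markers examined at 1 TPM (length-corrected share of transcripts) or more in every group. The summed level of these markers was 1583 to 3787 TPM in control KD and 3650 to 5724 TPM in GSTM1 KD without stimulation, and the lower control value belonged to replicate 1, whose Gfap was 707 TPM against 2206 TPM in replicate 2. After TNF-α the same sums were 1581 to 3643 TPM and 3496 to 5420 TPM. Of 9 microglial markers 5 or 6 were under 1 TPM in each group, and the summed microglial level was 48.8 to 57.4 TPM. Among 6 mural cell markers Acta2, smooth muscle actin, stood at 3521 to 3935 TPM in control KD and 1730 to 2113 TPM in GSTM1 KD without stimulation. Pdgfrb went the other way, with 16.8 and 25.78 against 30.44 and 30.59 TPM without stimulation and 7.43 and 9.82 against 14.95 and 16.81 TPM after TNF-α, as did Rgs5, with 0.19 to 0.60 TPM in the 4 control KD libraries and 0.74 to 1.65 TPM in the 4 GSTM1 KD libraries. Notch3 was at 10.6 to 17.19 TPM in all libraries, and Kcnj8 and Abcc9 were at or under 0.07 TPM. The median log2 fold change (GSTM1 KD minus control KD) of the 4 mural markers tested was 0.17 without stimulation and 0.35 after TNF-α. In the same order it was -0.93 and -0.68 for microglial, -0.79 and -0.50 for oligodendrocyte lineage and -0.91 and -0.76 for endothelial markers. Fibroblast markers had -0.43 and -0.62, astrocyte markers 0.36 and 0.07, neuron markers 0.24 and 0.36 and ependymal markers 0.90 and 0.97. The 1 choroid plexus marker tested, Folr1, had 2.67 and 2.78. The other lists summed to 62.1 to 133 TPM (oligodendrocyte lineage), 3.18 to 8.27 TPM (endothelial) and 40.5 to 102 TPM (fibroblast). The remaining sums were 86.8 to 135 TPM (neuron), 0.40 to 9.33 TPM (choroid plexus) and 79.4 to 141 TPM (ependymal). Of the 5 neuron markers, 4 were under 1 TPM in each group and 2 were tested. The fibroblast sum was higher in GSTM1 KD, against the sign of its median. Without stimulation it was 47.65 to 67.87 TPM in control KD and 90.2 to 102 TPM in GSTM1 KD. After TNF-α it was 40.5 to 66.5 against 76.9 to 87.1 TPM. The microglial sums overlapped between the arms in both states, at 53.3 to 54.2 against 52.9 to 57.25 TPM without stimulation. In edgeR, S100b, Olig2 and Acta2 were lower and Pdgfrl and Folr1 higher in GSTM1 KD in both states, and after TNF-α Foxc1 was also lower and Pdgfrb higher. In these bulk cultures fewer cells of a type and less RNA per cell cannot be told apart.

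Itga5, the α subunit of the fibronectin receptor, had lower levels in GSTM1 KD than in control KD astrocytes in both states (plot of CPM by library). The gene lies on the minus strand of chromosome 15 (GRCm38, chr15:103344286-103366763). Its CPM values were 354 and 412 in unstimulated control KD libraries, against 95.9 and 140.2 in unstimulated GSTM1 KD libraries. After TNF-α they were 558 and 682 in control KD, against 163 and 196 in GSTM1 KD. All 4 GSTM1 KD libraries lay below all 4 control KD libraries, also when stimulated GSTM1 KD cells were set against unstimulated control cells. The log2 fold change (GSTM1 KD minus control KD) was -1.70 ± 0.208 (SE), or 3.25-fold lower, without stimulation and -1.81 ± 0.156 (SE), or 3.52-fold lower, after TNF-α. A miRNA gene, Mir6963, lies within Itga5 on the same strand, and whether its reads would be counted apart is not known. The 250 bases upstream of the Itga5 start are shown because this gene had the largest difference in level among the abundant subunits, and those of Itga3 because it was lower in both states as well. They are written 5′ to 3′ along each gene's strand, as RefSeq gives them for GRCm38.p6, with matches to the SP1 letters in capitals.
Itga5, chr15:103366792-103367041, minus strand: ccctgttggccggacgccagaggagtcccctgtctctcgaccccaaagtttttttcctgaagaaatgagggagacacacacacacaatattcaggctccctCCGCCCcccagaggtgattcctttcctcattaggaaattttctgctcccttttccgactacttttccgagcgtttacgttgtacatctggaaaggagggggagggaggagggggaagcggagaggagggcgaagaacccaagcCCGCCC
Itga3, chr11:95076715-95076964, minus strand: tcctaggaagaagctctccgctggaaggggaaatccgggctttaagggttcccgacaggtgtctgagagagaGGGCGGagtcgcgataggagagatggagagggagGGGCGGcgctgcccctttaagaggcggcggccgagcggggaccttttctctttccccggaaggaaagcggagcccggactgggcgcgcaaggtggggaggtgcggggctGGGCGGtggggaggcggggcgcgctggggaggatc
Of the 10 genes, 7 had a RefSeq promoter window, and Itga6, Itga7 and Itgb3 were the others. The letters GGGCGG (SP1), searched on both strands, were in the windows of 4 of these 7 genes (Itga3, Itga5, Itgb1 and Itgb5) and in 32.7% of all 32851 mouse promoter windows of the same length. A match is a description of the sequence and not a bound site. The 7 genes had 8 windows in all, while the share over all promoters is one of single windows. RefSeq places the starts of Itga5 and Itga3 apart from the gene ends given here, so the printed Itga3 window partly overlaps the gene as annotated. Itga3 has another window (chr11:95069199-95069448), not printed, which lies within the annotated gene and also holds the SP1 letters.

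**Figure D1:**
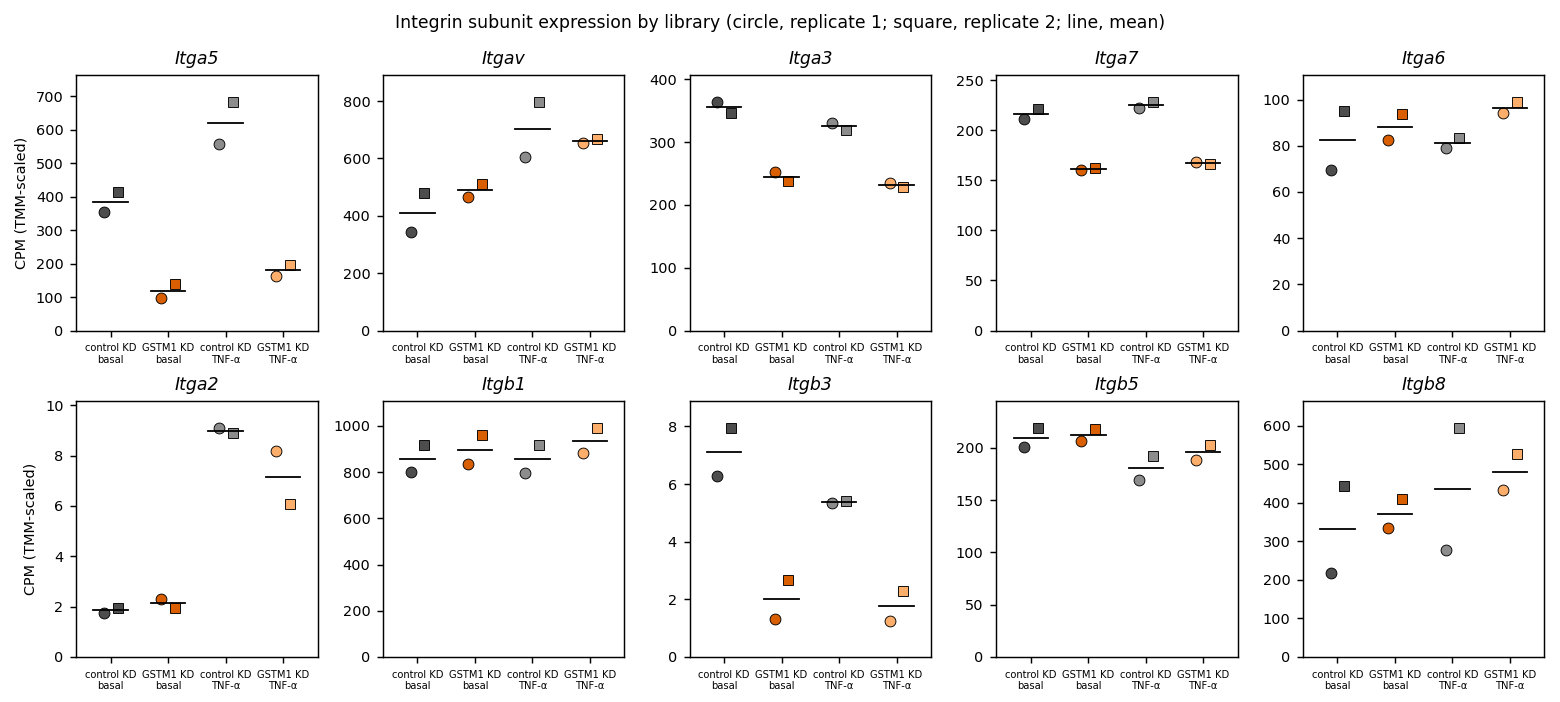
CPM (TMM-scaled) of the 10 integrin subunit genes in each library, 1 panel per gene, with circles for replicate 1, squares for replicate 2 and a line at the mean of the 2 libraries of a group. Itga5, Itga3, Itga7 and Itgb3 were lower in all GSTM1 KD libraries than in all control KD libraries of the same state, Itga2 was higher after TNF-α in both arms, and Itgb8 differed most between the 2 control KD replicates.

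The order of the subunits by level was read from TPM, which corrects for transcript length. Itgb1, the partner of most α subunits, was the highest in every group, with a mean of 413 ± 42.7 TPM in control KD and 449 ± 42.9 TPM in GSTM1 KD without stimulation (SD, n = 2) and 406 ± 35.0 TPM and 457 ± 44.9 TPM after TNF-α. Itga5 was second in control KD, at 160.0 ± 18.3 TPM basal and 255 ± 29.9 TPM after TNF-α, and seventh in GSTM1 KD, at 51.7 ± 13.1 TPM basal and 77.4 ± 13.1 TPM after TNF-α. In both GSTM1 KD groups the second place belonged to Itgav, at 164 ± 18.7 TPM basal and 212 ± 6.53 TPM after TNF-α. Itga3, Itgb5, Itgav and Itga7 followed Itga5 in basal control KD with overlapping libraries between neighbours, from 133 ± 4.34 TPM down to 101 ± 5.25 TPM. The libraries of Itgav (104 and 160 TPM) also overlapped those of Itga5 (147 and 173 TPM) there. Itgb8 and Itga6 came next in basal control KD, at 71.0 ± 33.9 and 43.2 ± 9.43 TPM, and their libraries did not separate. The fourth to sixth places in stimulated control KD, held by Itga3, Itgb5 and Itga7, ran from 119 ± 5.49 to 104 ± 0.481 TPM, and Itgb5 and Itga7 did not overlap there, while the libraries of Itga5 and Itgav in the places above them did. In basal GSTM1 KD the order after Itgav was Itgb5 (137 ± 3.56 TPM), Itga3 (94.98 ± 3.69 TPM), Itgb8 (81.9 ± 10.95 TPM), Itga7 (77.9 ± 0.240 TPM), Itga5 and Itga6 (48.3 ± 3.25 TPM). Itgb8 and Itga7 overlapped there, as did Itga5 and Itga6. In stimulated GSTM1 KD the libraries of Itga5 overlapped those of Itga7, the sixth, at 78.2 ± 0.940 TPM. Itgb3 and Itga2 were the 2 lowest in every group, between 0.40 and 3.04 TPM in all libraries.

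As a share of the summed TPM of the 6 α genes, Itga5 held 27.9% and 28.1% in the basal control KD libraries and 10.2% and 13.3% in the basal GSTM1 KD libraries. After TNF-α its share was 33.4% and 34.6% in control KD, against 13.8% and 16.6% in GSTM1 KD. The share of Itgav was 19.97% and 25.9% against 36.2% and 38.5% without stimulation, and 27.7% and 32.2% against 41.3% and 42.0% after TNF-α. Shares within a sum move against each other, and these follow in part from how Itga5 was picked. In TPM the 6 α genes summed to 523 and 619 in basal control KD and 415 and 459 in basal GSTM1 KD. Without Itga5 the same sums were 375 and 446 against 373 and 399, with overlapping groups. After TNF-α the sums without Itga5 were 465 and 520.2 in control KD, against 426 and 437 in GSTM1 KD, and these groups did not overlap. Among the 4 β genes Itgb1 held 64.2% to 69.6% of the summed TPM in the 8 libraries, Itgb5 17.4% to 23.0%, Itgb8 8.40% to 18.2% and Itgb3 at most 0.363%. No β gene other than Itgb3 had shares that separated GSTM1 KD from control KD in both states.

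**Figure D2:**
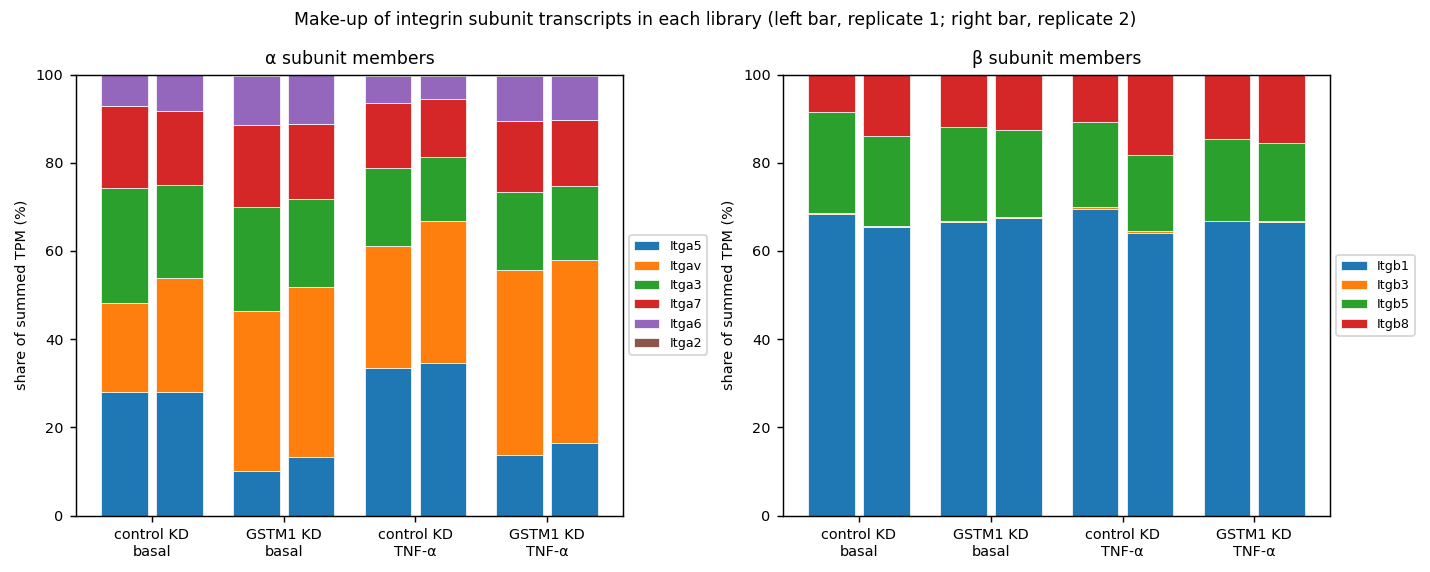
Share (%) of each gene in the summed TPM of the 6 α genes and of the 4 β genes, 1 bar per library, with replicate 1 left and replicate 2 right in each group. Itga5 took 27.9% to 34.6% of the α sum in control KD and 10.2% to 16.6% in GSTM1 KD, while Itgb1 took 64.2% to 69.6% of the β sum in all libraries.

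The first comparison asked which other subunits differed between GSTM1 KD and control KD astrocytes. Itga3, Itga7 and Itgb3 had lower levels in GSTM1 KD in both states. The markers Acta2 (log2 fold change -1.02 basal and -0.93 after TNF-α), Olig2 (-0.85 and -1.14) and S100b (-1.44 and -1.71) were lower in the same comparisons. Pdgfrb (0.46 and 0.81) and Rgs5 (1.64 and 1.55) had positive values. S100b was the only astrocyte marker that passed in edgeR. Gfap (1.10 and 1.08), Aldoc (1.11 and 1.10), Aldh1l1 (1.05 and 1.22) and Slc1a2 (0.67 and 0.49) had positive values, and Sox9 (-0.50 and -0.41) negative ones. Gja1 was at 0.36 and 0.07, Slc1a3 at 0.0065 and -0.034 and Aqp4 at -0.077 and -0.018. The part of these markers in the results of the subunits was not tested. In the quasi-likelihood test of edgeR (adjusted p under 0.05 over all genes tested), 2 of the 9 other subunits, Itga3 and Itgb3, were lower without stimulation and 3, Itga3, Itga7 and Itgb3, after TNF-α, and none was higher. Over all genes tested 5.62% were lower by the same rule without stimulation and 8.92% after TNF-α. The subunits were chosen with earlier results of these data known, so these counts are a description. The median log2 fold change of the 9 other subunits was 0.06 without stimulation and -0.11 after TNF-α, against -0.0020 and -0.01 over all genes tested. The 2 states share no library, and whether they were set up from the same infected cultures is not given in the sources used here. The study also names Itgb3 among its inflammatory response genes after TNF-α, so the test of Itgb3 is not independent evidence.

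Among the laminin receptor subunits, Itga3 (minus strand, chr11:95044474-95076801) stood at 364 and 346 CPM in control KD, against 252 and 238 CPM in GSTM1 KD without stimulation. After TNF-α it stood at 330.4 and 319.9 CPM in control KD, against 234 and 229 CPM in GSTM1 KD. The replicates lay close together, and neither state showed any overlap between the groups. The log2 fold change was -0.54 ± 0.111 (SE; adjusted p = 0.0420) basal and -0.51 ± 0.0995 (SE; adjusted p = 0.0292) after TNF-α, which is 1.45-fold and 1.43-fold lower.

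Itga7 (plus strand, chr10:128933818-128958282), a laminin receptor subunit best known from muscle, had 211 and 221 CPM in control KD, against 160.5 and 162 CPM in GSTM1 KD without stimulation. After TNF-α the values were 223 and 228 CPM against 169 and 166 CPM. All 4 control KD libraries were again above all 4 GSTM1 KD libraries, but only the stimulated comparison passed the test, with a log2 fold change of -0.46 ± 0.0940 (SE; adjusted p = 0.0338). The basal fold change was -0.42 ± 0.104 (SE; adjusted p = 0.0600). With DESeq2, with all 8 libraries in 1 fit, without the filter on low counts, or with the replicate number as a block in edgeR, the basal comparison of Itga7 passed as well, with adjusted p = 0.0232, 0.0138, 0.0151 and 0.00777. The end of Itga7 overlaps Mettl7b on the opposite strand, and a small nuclear RNA gene, Gm25494, lies within it.

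Itga6 (plus strand, chr2:71745616-71858416), another laminin receptor subunit, had 69.7 and 95.3 CPM in control KD, against 82.5 and 93.6 CPM in GSTM1 KD without stimulation, and 78.9 and 83.5 CPM against 94.1 and 99.0 CPM after TNF-α. The basal groups overlapped, and the stimulated groups did not. Its log2 fold change after TNF-α was 0.22 (95% CI -0.0049 to 0.45, adjusted p = 0.144), so the laminin receptor subunits did not all have the same sign. Gm13662 and Gm13663 lie within Itga6 on the same strand.

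Itgb3 (plus strand, chr11:104608000-104670476), which pairs with Itgav into a vitronectin receptor, had the largest fold change of the 9 other subunits and one of the lowest levels. It was counted 222 and 203 times in the basal control KD libraries and 31 and 53 times in the basal GSTM1 KD libraries. After TNF-α the counts were 124 and 90 in control KD, against 27 and 40 in GSTM1 KD. In CPM these are 6.28 and 7.94 against 1.33 and 2.66, and 5.34 and 5.42 against 1.25 and 2.30. The groups did not overlap in either state, and GSTM1 KD replicate 2 was the higher of its pair in both. The log2 fold change was -1.84 ± 0.377 (SE; adjusted p = 0.0406) basal and -1.64 ± 0.355 (SE; adjusted p = 0.0377) after TNF-α, or 3.58-fold and 3.12-fold lower.

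The other 5 subunits did not pass in either state. Itgav (plus strand, chr2:83724397-83806916) had 343 and 480 CPM in control KD, against 465 and 513 CPM in GSTM1 KD without stimulation, and 606 and 797 CPM against 655 and 669 CPM after TNF-α. Its log2 fold change was 0.25 (95% CI -0.21 to 0.71) basal and -0.11 (95% CI -0.49 to 0.28) after TNF-α. Itgb1 (plus strand, chr8:128685654-128733200) had 801 and 917 CPM in control KD, against 834 and 959 CPM in GSTM1 KD without stimulation, with a log2 fold change of 0.06 (95% CI -0.30 to 0.42). After TNF-α that of Itgb1 was 0.10 (95% CI -0.23 to 0.43). Itgb5 (plus strand, chr16:33829665-33949338), a partner of Itgav, had 201 and 219 CPM in control KD, against 207 and 218 CPM in GSTM1 KD without stimulation, and its log2 fold change was 0.02 (95% CI -0.26 to 0.29) basal and 0.09 (95% CI -0.18 to 0.36) after TNF-α. Both genes had overlapping groups in the 2 states.

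Itgb8 (minus strand, chr12:119158022-119238802) had 218 and 444 CPM in control KD, against 334 and 409 CPM in GSTM1 KD without stimulation, and 276 and 593 CPM against 434 and 527 CPM after TNF-α. In both states the 2 control KD libraries lay on either side of the GSTM1 KD libraries, and the intervals were wide, -0.65 to 0.99 basal and -0.74 to 0.98 after TNF-α on the log2 scale. Control KD replicate 1, the low one, was also the one with the lowest Gfap in both states, and the part of that difference in the result was not tested. With control KD replicate 2 left out, Itgb8 became higher in GSTM1 KD in both states, by 0.76 and 0.78 on the log2 scale (edgeR adjusted p = 0.00508 and 0.00620), and so did Itgav without stimulation, by 0.50 (edgeR adjusted p = 0.0180). In those fits, where 1 library stands for control KD, 34.1% of all genes tested were called without stimulation and 32.9% after TNF-α. With control KD replicate 1 left out the Itgb8 values were -0.26 and -0.33 and did not pass.

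Itga2 (minus strand, chr13:114833081-114932100), the collagen receptor subunit, was counted 39 to 62 times in the basal libraries, with 1.75 and 1.96 CPM in control KD, against 2.32 and 1.95 CPM in GSTM1 KD. Its log2 fold change between the arms was 0.21 (95% CI -0.54 to 0.96) basal and -0.36 (95% CI -0.91 to 0.20) after TNF-α. The interval was wide in both states.

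The calls in this comparison moved with the library left out. With either GSTM1 KD library left out of its state, 0 of the 9 subunits passed in edgeR, where the lone library is assumed to vary like the other group. Over all genes 0 (without replicate 1) and 3 (without replicate 2) passed without stimulation, and 0 and 94 after TNF-α, against 1524 and 2360 with all libraries. With either control KD library left out the counts were higher instead. Without control KD replicate 1, 2188 genes passed basal and 2860 after TNF-α, with 3 subunits in each, and without control KD replicate 2, 5233 and 5028 genes passed, with 5 and 4 subunits. Without a GSTM1 KD library the targeted gene Gstm1 itself had adjusted p = 0.0857 and 0.101 without stimulation. Over the 4 fits without 1 GSTM1 KD library the log2 fold change of Itga3 stayed between -0.58 and -0.49 and that of Itgb3 between -2.42 and -1.24.

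**Figure D3:**
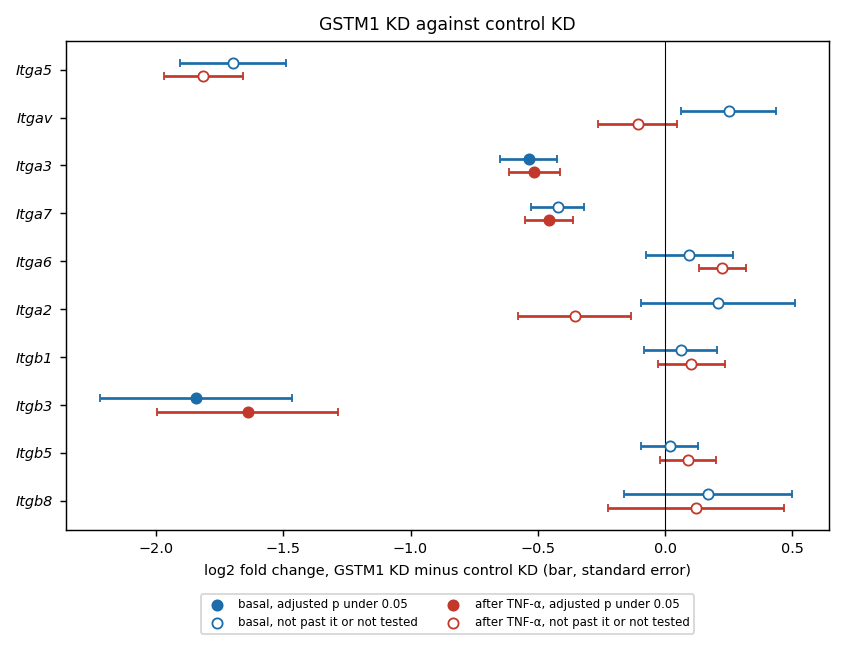
Log2 fold change of GSTM1 KD minus control KD for the 10 genes, basal in blue and after TNF-α in red, with bars for the standard error. Filled points passed an adjusted p of 0.05 in edgeR; Itga5 is open because it was picked for this contrast and not tested. Itga5 and Itgb3 lay between -1.84 and -1.64, Itga3 and Itga7 between -0.54 and -0.42, and the other 6 genes between -0.36 and 0.25.

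The remaining integrin subunits added little RNA. The 10 genes held 88.9% to 95.1% of the summed TPM of all 18 listed α genes and 99.7% to 99.9% of that of all 9 listed β genes. The largest of the others was Itga1, a collagen and laminin receptor subunit, with 158 and 233 CPM in control KD, against 195 and 189 CPM in GSTM1 KD without stimulation and a log2 fold change of -0.02 ± 0.196 (SE). Of the 9 others that passed the filter on low counts, 0 passed the test without stimulation and 1, Itga4, was lower after TNF-α. Over all genes tested, 5.62% were lower and 4.60% higher without stimulation, and 8.92% lower and 7.26% higher after TNF-α. Itga4, the α4 subunit known from leukocytes, had 5.30 and 3.55 CPM in control KD, against 1.76 and 1.55 CPM in GSTM1 KD after TNF-α, with a log2 fold change of -1.45 ± 0.331 (SE; adjusted p = 0.0419). Without control KD replicate 1 that became -1.12 (adjusted p = 0.0754). The leukocyte subunits Itgam (CD11b, the antigen used for depletion) and Itgb2 were counted 61 and 50 times in the basal control KD replicate 1 and 35 and 36 times in the stimulated one, against 0 to 8 and 6 to 19 times in the other 6 libraries. Itga4, Itgam and Itgb2 were thus all highest in control KD replicate 1, and the part of residual leukocytes in Itga4 was not tested. Without stimulation the log2 fold change was -1.13 for Itga4 (edgeR adjusted p = 0.103) and -1.72 for Itgb2 (edgeR adjusted p = 0.123). The basal groups of both genes did not overlap. After TNF-α Itgb2 was at -0.52 (edgeR adjusted p = 0.638), with overlapping groups. Itga9, Itga2b, Itga8, Itga10, Itga11 and Itgb4 had adjusted p from 0.328 to 0.995 over the 2 states.

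The second comparison asked how TNF-α changed the subunits within each arm. Itga2 rose in both arms, and no other subunit passed in edgeR, which is 1 of 10 in each arm. Over all genes tested 2.10% were higher after TNF-α in control KD and 2.35% in GSTM1 KD. Itga2 went from 1.75 and 1.96 CPM to 9.09 and 8.91 CPM in control KD, and from 2.32 and 1.95 CPM to 8.18 and 6.09 CPM in GSTM1 KD. The stimulated libraries were counted 106 to 211 times. All 4 stimulated libraries lay above all 4 basal ones, with no overlap in either arm. The log2 fold change (TNF-α minus basal) was 2.28 ± 0.225 (SE; adjusted p = 0.00433), or 4.85-fold, in control KD and 1.74 ± 0.227 (SE; adjusted p = 0.00923), or 3.33-fold, in GSTM1 KD.

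The control KD call of Itga2 held in every alternative tried, with adjusted p no higher than 0.0460. The GSTM1 KD call did not hold in 3 of the 4 fits without 1 library of that arm (adjusted p = 0.0763 to 0.119 in edgeR), nor when the effective transcript lengths were used as offsets, where the log2 fold change was 1.25 (adjusted p = 0.292). Effective lengths of Itga2 ran from 3812 to 6884 bases, a ratio of 1.81 between libraries, while each of the other 9 genes stayed within a ratio of 1.09. Between the GSTM1 KD groups it was 3812 and 6866 bases without stimulation and 6870 and 6881 bases after TNF-α.

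Itga5 and Itgav had higher levels after TNF-α in all stimulated libraries of both arms than in the unstimulated libraries of the same arm, without passing the test. Itga5 went from 354 and 412 CPM to 558 and 682 CPM in control KD, with a log2 fold change of 0.69 (95% CI 0.22 to 1.17, adjusted p = 0.168). In GSTM1 KD the Itga5 fold change was 0.60 (95% CI 0.13 to 1.08, adjusted p = 0.279). Itgav changed by 0.77 (95% CI 0.33 to 1.21, adjusted p = 0.0984) in control KD and 0.44 (95% CI -0.0041 to 0.88, adjusted p = 0.466) in GSTM1 KD. In DESeq2 both passed in control KD, with adjusted p = 0.0275 for Itga5 and 0.00409 for Itgav, and neither passed in GSTM1 KD. Without the filter on low counts both passed in both arms in edgeR. With the replicate number as a block in edgeR, Itga5 passed in both arms (adjusted p = 0.00695 for control KD, 0.0120 for GSTM1 KD) and Itgav only in control KD (adjusted p = 0.0118). With only the 4 libraries of an arm in the fit, Itgav passed in GSTM1 KD and not in control KD, and Itga5 passed in neither arm. The remaining 7 subunits had log2 fold changes between -0.40 (Itgb3) and 0.39 (Itgb8) in control KD and between -0.17 (Itgb3) and 0.37 (Itgb8) in GSTM1 KD, and none of these passed in any alternative.

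The upstream 250 bases of Itga2 and Itgav are shown because these genes had the highest fold changes after TNF-α besides Itga5, whose window is printed above. They follow the same conventions.
Itga2, chr13:114932101-114932350, minus strand: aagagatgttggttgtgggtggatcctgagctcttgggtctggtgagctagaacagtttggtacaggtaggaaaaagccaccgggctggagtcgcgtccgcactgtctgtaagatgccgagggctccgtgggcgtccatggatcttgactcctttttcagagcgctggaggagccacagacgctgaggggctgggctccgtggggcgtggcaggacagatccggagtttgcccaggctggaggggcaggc
Itgav, chr2:83724147-83724396, plus strand: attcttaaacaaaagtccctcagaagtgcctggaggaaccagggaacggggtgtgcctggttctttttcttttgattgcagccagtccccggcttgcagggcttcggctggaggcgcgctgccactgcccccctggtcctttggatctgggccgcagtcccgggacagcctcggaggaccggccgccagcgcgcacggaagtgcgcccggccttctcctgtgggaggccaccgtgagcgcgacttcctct
No window of the 7 genes held the NF-κB consensus, the AP-1 letters TGANTCA or the serum response (CArG) consensus on either strand. In all mouse windows of this length the shares were 7.25%, 6.75% and 1.47%. The TEAD letters GGAATG were in 1 of the 7, Itgb1, against 12.6% of all windows. No match says only that these letters are not in this short stretch.

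**Figure D4:**
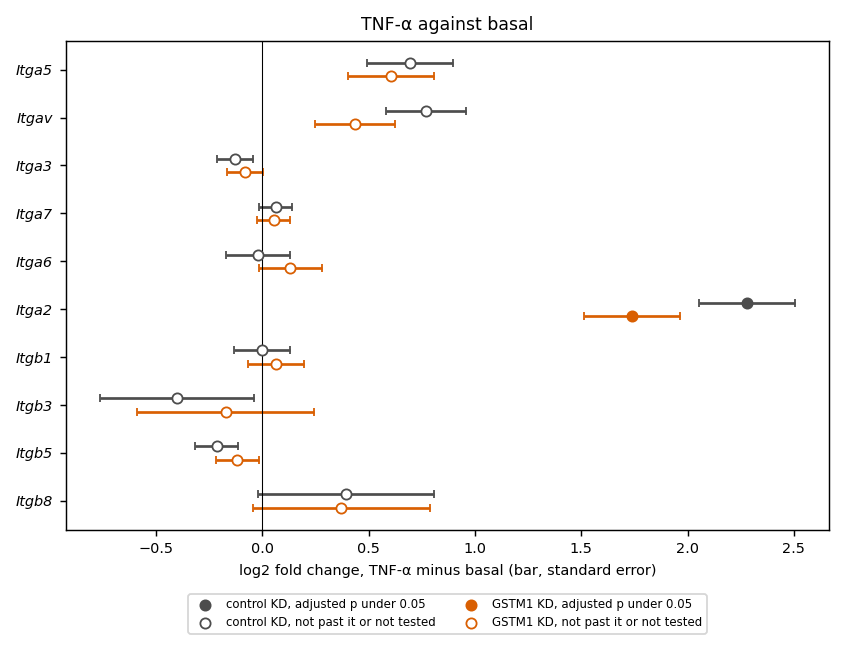
Log2 fold change of TNF-α minus basal for the 10 genes, control KD in grey and GSTM1 KD in orange, with bars for the standard error and filled points for an adjusted p under 0.05 in edgeR. Only Itga2 is filled, at 2.28 in control KD and 1.74 in GSTM1 KD; Itgav and Itga5 follow at 0.44 to 0.77.

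The difference between the 2 responses was tested by itself. No subunit passed. The difference (response in GSTM1 KD minus response in control KD, log2 scale) was -0.54 (95% CI -1.28 to 0.20) for Itga2, -0.33 (95% CI -0.96 to 0.29) for Itgav and -0.09 (95% CI -0.76 to 0.58) for Itga5. Over all genes tested 0 passed in edgeR, a share of 0%, with 296 at an unadjusted p under 0.05 and no subunit among them, and DESeq2 called 27 genes, also without a subunit. The interval of each of the 10 genes held values on both sides of 0.

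The genes most like Itga5 over the 8 libraries were taken by Pearson correlation of log2 CPM, as a description of 8 libraries in 4 groups. Itga5 was picked as lower in GSTM1 KD, so genes that differ between the arms rank high or low in part by that choice. Among 15331 other genes Adam19 (r = 0.990), Klhl12, Kdm2a, Inhba and Adam12 (r = 0.986) were the most alike. Adam19 and Adam12 encode membrane metalloproteases and Inhba a subunit of activin. Adam19 had 36.8 and 34.8 CPM in control KD, against 13.7 and 18.7 CPM in GSTM1 KD without stimulation, and 51.9 and 51.6 against 18.4 and 21.9 CPM after TNF-α. Inhba had 110.8 and 98.9 against 32.7 and 48.6 CPM without stimulation, and 148 and 144 against 46.8 and 56.5 CPM after TNF-α. The most opposite were Sh3bp5 (r = -0.996), Pcsk6, Manf, Fdx1 and Cisd1 (r = -0.989), of which Manf encodes a protein of the endoplasmic reticulum stress response. Pcsk6, a proprotein convertase, had 239 and 219 against 383 and 355 CPM without stimulation and 202 and 192 against 331 and 321 CPM after TNF-α. With log2(TPM + 1) in place of log2 CPM, 3 of these 10 genes were in the corresponding 10. Of the other subunits Itga7 was the most like Itga5 (r = 0.96), followed by Itgb3 (0.86) and Itga3 (0.81), and Itgb5 had the lowest value (-0.44). Itga7, Itgb3 and Itga3 were also the subunits with lower levels in GSTM1 KD in both states, so their places add no separate evidence.

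The last comparison read the other genes of integrin adhesion, from lists of ligands, focal adhesion proteins, membrane partners and TGF-β activation (plot of the pathway lists). The lists were chosen with earlier results of these data known, so their counts are a description and not independent evidence. In the focal adhesion list, the longest, 7 of 28 genes tested were lower and 1 higher in GSTM1 KD without stimulation and 11 were lower and 1 higher after TNF-α. For lower genes the shares over all genes are those given above, and for higher genes they were 4.60% basal and 7.26% after TNF-α. The list's median log2 fold change was -0.27 basal and -0.40 after TNF-α. The lower genes were Tns3, Tgfb1i1, Zyx, Fermt2, Bcar1 and Sharpin in both states, Rsu1 without stimulation and Flna, Parva, Ptk2, Src and Vasp after TNF-α. They include scaffolds (Tns3, Tgfb1i1, Bcar1 and Parva), actin-binding proteins (Zyx, Flna and Vasp), the integrin activator kindlin-2 (Fermt2), the integrin inhibitor Sharpin and the kinases Ptk2 (FAK) and Src.

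Tns3, tensin 3, had 507 to 551 CPM in control KD and 158 to 179 CPM in GSTM1 KD without stimulation, and 584 to 594 against 186 to 191 CPM after TNF-α. Its log2 fold change was -1.65 ± 0.129 (SE; adjusted p = 0.0132) and -1.67 ± 0.105 (SE; adjusted p = 0.00971). The study also names Tns3 among its changed genes. Tgfb1i1 (Hic-5), a paxillin relative, was lower, at -1.90 ± 0.222 (SE; adjusted p = 0.0177) and -1.99 ± 0.194 (SE; adjusted p = 0.0105) on the same scale. Fermt2 was at -0.82 (adjusted p = 0.0250) without stimulation and Zyx at -1.08 (adjusted p = 0.0105) after TNF-α. The 1 higher gene in both states was Tln2, talin 2, at 0.79 (adjusted p = 0.0280) and 0.89 (adjusted p = 0.0128). With either GSTM1 KD library left out, at most 2 genes of the focal adhesion list were lower past the threshold, and with either control KD library left out 11 were without stimulation and 13 or 14 after TNF-α. Without the filter on low counts 12 were lower without stimulation and 14 after TNF-α, where the genes called over the whole table rose from 1524 to 3957 and from 2360 to 4539. With the replicate block the focal adhesion counts were also 12 and 14, where 31.7% and 29.5% of all genes were called in either direction. The mural markers, given above, had calls or values in both directions, with Acta2 lower in both states and Pdgfrb and Rgs5 at positive values, and their part in the result was not tested.

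Of 25 ligand genes tested, 3 were lower and 0 higher without stimulation and 3 lower and 1 higher after TNF-α. The shares over all genes were 5.62% lower and 4.60% higher without stimulation, and 8.92% lower and 7.26% higher after TNF-α. Lama4 (laminin α4), Cyr61 (a matricellular ligand of Itgav pairs) and Col1a2 (collagen type I) were lower in both states, at -1.27, -0.76 and -1.13 without stimulation (adjusted p = 0.0228, 0.0296 and 0.0352) and -1.11, -0.82 and -0.99 after TNF-α (adjusted p = 0.0174, 0.0193 and 0.0249). Lamb2 (laminin β2) was higher after TNF-α, at 0.81 (adjusted p = 0.0340). Fn1, the ligand of the Itga5 receptor, was at -0.39 and -0.36 and did not pass in either state. The list's median was -0.13 in both states. Of the fibroblast markers, Col3a1 was at -1.05 and -0.87, Twist1 at -1.35 and -1.42 and Foxc1 at -0.43 and -0.62. Dcn, at 0.15 and 0.35, and Pdgfrl, at 1.60 and 1.41, had positive values. Of the endothelial markers, Cdh5 was at -1.65 and -1.41, Flt1 at -0.91 and -0.76 and Kdr at 1.39 and 1.25. The part of these markers in the ligand results was not tested. With either GSTM1 KD library left out no ligand gene passed in edgeR, and with a control KD library left out 5 or 6 were lower, with up to 5 higher without stimulation and up to 3 after TNF-α. Without the filter on low counts 9 ligand genes were lower without stimulation and 11 after TNF-α, with the replicate block 8 in each state, and in DESeq2 6 in each. DESeq2 called 2492 genes over the whole table without stimulation and 2828 after TNF-α, and the counts over all genes without the filter and the shares with the block are those given for the focal adhesion list.

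Of 11 membrane partners, 1 was lower and 0 higher without stimulation and 2 lower and 1 higher after TNF-α. Shares over all genes were 5.62% lower and 4.60% higher without stimulation, and 8.92% lower and 7.26% higher after TNF-α. Cav1, caveolin 1, was lower, at -1.34 (adjusted p = 0.0218) and -1.07 (adjusted p = 0.0242), Plaur, the urokinase receptor, at -1.42 after TNF-α (adjusted p = 0.0143), and Cd47 was higher at 0.68 (adjusted p = 0.0494). Without a GSTM1 KD library no partner passed, and without a control KD library 3 to 5 were lower and up to 2 higher. Without the filter on low counts 5 partners were lower without stimulation and 6 after TNF-α, with the replicate block 6 in each state, and in DESeq2 4 and 6, to be read against the same calls over all genes. Of 11 genes of latent TGF-β and its activation, 1 was lower and 3 higher without stimulation and 2 lower and 2 higher after TNF-α. These counts are to be read against the same shares over all genes as the partners. Tgfb3 was at 1.21 (adjusted p = 0.0275) and 1.32 (adjusted p = 0.0219), Ltbp1, which holds latent TGF-β in the matrix, at 0.59 (adjusted p = 0.0484) and 0.63 (adjusted p = 0.0209), and Tgfb2 at 0.94 (adjusted p = 0.0465) without stimulation. Ltbp2 was at -0.58 (adjusted p = 0.0442) and -0.75 (adjusted p = 0.0196), and Tgfbr1, a TGF-β receptor, at -0.49 after TNF-α (adjusted p = 0.0437). The TGF-β list held calls in both directions, and its median was 0.09 and 0.08. Without a GSTM1 KD library none of its genes passed, and without a control KD library 1 or 2 were lower and 2 to 4 higher.

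**Figure D5:**
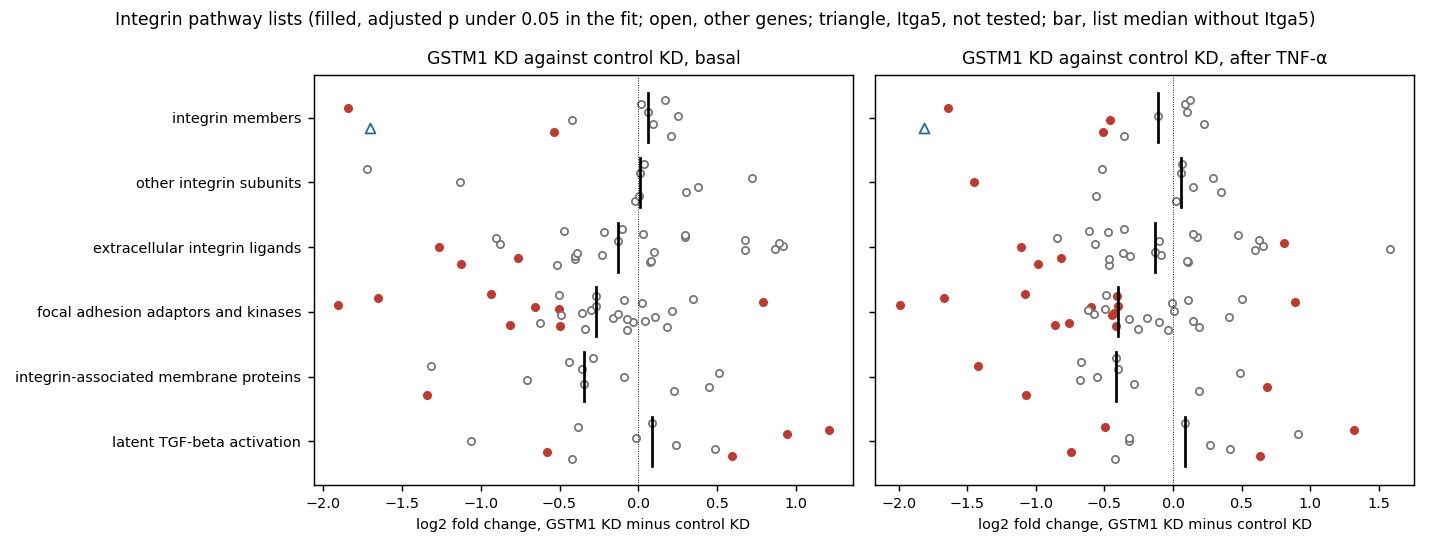
Log2 fold change of GSTM1 KD minus control KD for each tested gene of 6 integrin pathway lists, basal left and after TNF-α right, with filled points for an adjusted p under 0.05 in edgeR, a triangle for Itga5, which was not tested, and a bar at the list median, taken without Itga5. The focal adhesion list has 7 lower filled points without stimulation and 11 after TNF-α, against 1 higher in each state (Tln2). The lists were chosen with earlier results of these data known.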

How the data were processed

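RNA-seq of 8 mouse astrocyte libraries was analysed, 2 in each of 4 groups taken from the sample titles. The authors made strand-specific libraries, mapped reads to GRCm38 with STAR (version 2.5.4b) and quantified genes with RSEM (version 1.3.0). The annotation release and whether counting used the strand are not given in the sources used here. The deposited expected counts are estimated and unscaled, and were rounded. The deposited TPM values correct for effective length and library total and served for levels between genes. The deposited effective lengths, in bases, were an alternative offset. Deposited FPKM were not used.

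CPM with TMM factors (0.958 to 1.03), the filter filterByExpr and the quasi-likelihood test came from edgeR (version 4.0.16, R version 4.3.3), with Benjamini-Hochberg adjustment over all genes at 0.05. Knockdown comparisons used the 4 libraries of a state, and TNF-α responses and their difference all 8. The p-values come only from such fits, since 2 libraries against 2 allow no exact test below 0.05. Confidence intervals (CI) are 95%. The integrin genes and the other gene lists (pathway genes and markers of 9 cell types) were chosen with earlier results of these data known. The named genes are all 10 subunits, other subunits that passed the filter, in each knockdown comparison and pathway list at most 3 rising and 3 falling called genes whose groups do not overlap, taken by p (other called focal adhesion and marker genes, and Fn1, were named after their values were seen), and the 5 genes most and least like Itga5 (log2 CPM, prior count 2). Motifs were searched in RefSeq promoter windows, without the bases after the start. DESeq2 (version 1.42.0), other scalings, filters, sample sets, a replicate block and leaving out each library were alternatives. The procedure was tested on simulated counts first. The squared differences between replicates of a group were on average 13.8 to 56.1 times the sampling variance (chi-square per degree of freedom). That is more than a repeat of 1 library would give. Gene positions are from GENCODE on GRCm38 and matched all 10 identifiers in the files.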

Additional observations from a re-analysis of the deposited data

How the results depend on the processing

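Of the 9 subunits tested in the knockdown comparison, 2 passed without stimulation and 3 with TNF-α, and leaving out 1 library moved these counts between 0 and 5 and between 0 and 4. Both counts were 0 without either GSTM1 KD library and 3 to 5 without either control KD library, and in all of these fits 1 library stands for a group. For TNF-α in control KD the count of 1 became 3 in DESeq2, 3 without the filter and 2 with both control KD replicate 1 libraries left out (chosen after seeing the data, because of their low Gfap), and stayed 1 with each library left out. For TNF-α in GSTM1 KD the count of 1 became 3 without the filter, 2 with only the 4 libraries of that arm, 0 with effective lengths as offsets, and 0 to 1 with each library left out. Over all genes the calls for TNF-α in control KD went from 403 to 745, 1236 and 319 in those 3 fits, and in GSTM1 KD from 406 to 1039, 691 and 359. The cause was not tested. The difference in response gave 0 in every alternative. Over the alternatives the median log2 fold change of all genes moved by less than 0.1.

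The replicate numbers in the labels are shared by the groups, and whether they mark a shared culture preparation is not given in the sources used here. The correlation of same-numbered deviations was positive in every group pair, at 0.165 to 0.575. Libraries of the same number thus shared part of their deviations, and the main fits do not use this. With the replicate block the counts were 3 basal and 3 after TNF-α for the knockdown, 3 for TNF-α in control KD, 2 for TNF-α in GSTM1 KD and 0 for the difference. Over all genes the block called 31.7% and 29.5% in the knockdown comparisons, 6.44% and 5.27% for TNF-α and 0 for the difference. Itga7 gained a call in the basal knockdown comparison, Itga5 gained a call after TNF-α in both arms and Itgav in control KD.

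Signs turned only for values near 0 or with wide intervals, and no value of the turned sign was called, while the upper ends for Itgb8 in the knockdown ranges, of the sign reported, were. Itgb5 in basal GSTM1 KD was -0.010 without the filter and -0.0025 with effective lengths. Itgb1 after TNF-α in control KD was 0.0053 in DESeq2, 0.0028 with its size factors, 0.014 with a count minimum of 10, 0.0040 with 4 libraries, 0.0013 with effective lengths and 0.00027 without the control KD replicate 1 libraries, where the difference for Itga7 was 0.0064. With each library left out, the knockdown values ran from -0.12 to 0.33 for Itga6, -0.052 to 0.16 for Itgb1, -0.045 to 0.072 for Itgb5 and -0.26 to 0.76 for Itgb8 without stimulation, and from -0.29 to 0.10 for Itgav and -0.33 to 0.78 for Itgb8 after TNF-α. The TNF-α values ran from -0.23 to 0.23 for Itga6, -0.10 to 0.11 for Itgb1 and -0.24 to 1.00 for Itgb8 in control KD, and from -0.031 to 0.17 for Itgb1 and -0.66 to 0.40 for Itgb3 in GSTM1 KD. The differences ran from -0.34 to 0.20 for Itga5, -0.10 to 0.36 for Itga6, -0.056 to 0.024 for Itga7, -0.047 to 0.16 for Itgb1, -0.27 to 0.79 for Itgb3 and -0.63 to 0.62 for Itgb8. Depth limits Itga2 and Itgb3, whose counts were at most 222 in any library.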
